A study of Mus musculus with 27 samples.

Results

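The 10 genes described here take part in the blood-retina barrier and were looked up by symbol in a table of 40129 genes from whole mouse retinas. They are Cldn5, Ocln and Tjp1 of the tight junction, Plvap and Cav1 of the vesicle and diaphragm system, the lipid transporter Mfsd2a, the efflux pumps Abcb1a and Abcg2, and the uptake carriers Slco1c1 and Slc7a5. All 10 had a mean above the filter of 1 normalized read. The samples were wild-type C57BL/6J mice with 1 library each. In the oxygen-induced retinopathy (OIR) model, pups are kept in high oxygen in the second week of life and then returned to room air, and the retina is hypoxic around p14 and grows neovascular tufts around p17. Age-matched pups that stayed in room air (nOIR) served as controls. At p14 there were 6 nOIR and 6 OIR mice, and at p17 there were 6 nOIR and 8 OIR mice. A further nOIR p14 mouse, S4, was left out, following the study's exclusion for lens tissue. The model acts on the whole animal, and some libraries pooled both retinas of a pup while others held the fellow eye of a stained one. OIR pups with a weight outside the study's range at p17 were not used, and the paper states no such limit for controls. Pups of 1 group shared litters, and the litter of each mouse was not used here, so mice were taken as independent and p-values measure only the spread between these animals.

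The inner blood-retina barrier is built by the endothelial cells of the retinal vessels, and the outer barrier by the retinal pigment epithelium. Endothelial cells of the retina seal the gaps between them with claudin-5 and occludin, anchored inside the cell by ZO-1 (the product of Tjp1), and hold down vesicle transport through Mfsd2a, a lipid transporter. Plvap, the protein of the diaphragms that span fenestrae and caveolae, is known as a marker of leaky vessels and is largely lost from mature retinal endothelium. Pumps and carriers in the same membranes decide which small molecules cross. Several of these genes are not particular to endothelium: Tjp1, Cav1, Slc7a5 and Abcg2 are also used by glia, neurons, pigment epithelium or other cells.

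The upstream sequences of 4 genes are shown because they include the pair that was lower at p14 (Cldn5 and Slco1c1) beside the lipid transporter and an efflux pump of the same barrier. Each is the 250 bases before the RefSeq start site (GRCm38.p6), with CG dinucleotides in capitals.
Cldn5, chr16:18776597-18776846, plus strand: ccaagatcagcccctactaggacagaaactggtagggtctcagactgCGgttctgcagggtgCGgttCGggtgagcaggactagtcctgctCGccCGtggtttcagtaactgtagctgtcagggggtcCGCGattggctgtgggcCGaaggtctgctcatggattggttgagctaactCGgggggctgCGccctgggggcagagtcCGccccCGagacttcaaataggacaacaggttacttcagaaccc
Slco1c1, chr6:141524104-141524353, plus strand: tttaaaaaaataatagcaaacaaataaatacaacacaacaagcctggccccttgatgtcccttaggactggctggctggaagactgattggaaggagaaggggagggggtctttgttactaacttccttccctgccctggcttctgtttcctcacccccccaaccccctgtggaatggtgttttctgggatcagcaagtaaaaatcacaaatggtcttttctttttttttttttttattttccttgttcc
Abcb1a, chr5:8566841-8567090, plus strand: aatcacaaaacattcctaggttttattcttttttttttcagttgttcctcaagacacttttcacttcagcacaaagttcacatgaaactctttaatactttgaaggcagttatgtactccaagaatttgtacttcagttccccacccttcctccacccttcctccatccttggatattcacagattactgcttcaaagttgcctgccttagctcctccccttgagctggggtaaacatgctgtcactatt
Mfsd2a, chr4:122961189-122961438, minus strand: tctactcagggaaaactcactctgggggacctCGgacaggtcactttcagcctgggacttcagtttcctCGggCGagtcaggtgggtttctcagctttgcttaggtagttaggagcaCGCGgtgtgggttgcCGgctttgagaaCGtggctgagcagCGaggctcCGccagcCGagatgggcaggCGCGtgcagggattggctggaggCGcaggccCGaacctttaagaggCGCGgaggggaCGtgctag
The Slco1c1 and Abcb1a windows held 0 CG dinucleotides, a property of 7.87% of all 32851 RefSeq windows of this length, and their GC content was 42.8% and 40.4% against a median of 52.4%. The Cldn5 window held 12 CG dinucleotides and the Mfsd2a window 17, against a median of 6. Upstream windows were available for 8 of the 10 genes, with 12 start sites, and not for Plvap and Slc7a5. The letters ACGTG, the core of the sequence bound by hypoxia-inducible factors, were searched on both strands. They occurred at 2 positions in the Mfsd2a window and 1 in a Cav1 window, and 16.6% of all windows held them. The letters CACCC, a core bound by Krüppel-like factors, were found at 2 positions in the Cldn5 window, 2 in that of Abcb1a and 1 in that of Slco1c1, against 52% of all windows. Also searched were CCGGAA of ETS factors (in 12% of all windows), TAAACA of forkhead factors (12%), CTTTGA of TCF factors (13.8%) and ACAAT of SOX factors (27.7%). None of these letters occurred in the Cldn5 and Slco1c1 windows, whereas that of Abcb1a held TAAACA at 1 position and CTTTGA at 2, and that of Mfsd2a held CTTTGA at 1.

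The libraries held between 17029536 and 33593428 reads, with a median of 30024568. Endothelial markers were present in every group: the summed level of 14 such genes ranged from 4953 to 5812 normalized reads in nOIR p14 mice, from 3674 to 6372 in OIR p14, from 4694 to 5499 in nOIR p17 and from 8684 to 12595 in OIR p17. Of these 14 genes, 2 were higher and 1 lower in OIR mice at p14, whereas 12 were higher and 0 lower at p17, with a median log2 fold change of 1.51 against -0.02 over all genes. Of 9 mural cell markers, 5 were lower at p14 and 7 higher at p17, with sums of 14174 to 20034 in OIR p14 and 29786 to 42608 in OIR p17 against 21124 to 26893 and 22863 to 32994 in their controls. Vtn made up most of these sums, with means of 20484 in nOIR p14, 14816 in OIR p14, 26630 in nOIR p17 and 24288 in OIR p17 mice. Its log2 fold change at p17 was -0.14 and did not pass. All 5 erythrocyte genes were higher at p17, with sums from 1227 to 16980 in OIR and from 195 to 1191 in nOIR mice. Of 5 Müller glia genes, 4 were lower at each age. The summed level of 5 lens genes was 16636 in the excluded mouse S4, against a median of 344 and a highest value of 17946 in the nOIR p14 mice that were kept. It ranged from 9.66 to 6049 in OIR p14 (median 2119), from 89.6 to 10669 in nOIR p17 (median 2130) and from 246 to 31572 in OIR p17 mice (median 7236), so the medians were higher in OIR at both ages and the ranges overlapped. The median log2 fold change of the 5 lens genes was 1.47 at p14 and 1.66 at p17, and none of them passed at either age (0 with an unadjusted p under 0.05, 0 with edgeR and 0 with DESeq2). Of 5 rod genes, 1 was lower at p14 and 2 at p17. For 6 genes of the retinal pigment epithelium, the sums ranged from 1825 to 8439 in nOIR p14, 3119 to 4087 in OIR p14, 1131 to 7650 in nOIR p17 and 2016 to 6487 in OIR p17 mice. None of these 6 pigment epithelium genes passed the limma test at either age (1 at p14 and 0 at p17 with an unadjusted p under 0.05, and 0 with edgeR and DESeq2). The part of these other cells in the results was not tested. In a whole retina, fewer cells of a type and less RNA per cell cannot be told apart.

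At p14, OIR retinas held less Cldn5 and Slco1c1 and more Plvap, and the other 7 barrier genes did not pass the test. At p17, 5 genes were higher in OIR retinas, namely Plvap, Cldn5, Slc7a5, Cav1 and Abcg2, and Slco1c1 alone was lower. Passing means an adjusted p under 0.05 in limma, fitted to log2(normalized reads + 1) of all 27137 genes above the filter with Benjamini-Hochberg adjustment. At p14, 7 of the 10 genes had an unadjusted p under 0.05 by limma. Among these were Ocln, Abcg2, Abcb1a and Mfsd2a, which did not pass after adjustment. Of all genes, 3.18% were called higher and 2.91% lower at p14, and 7.39% were higher and 5.12% lower at p17. The median log2 fold change of the 10 genes was -0.18 at p14 and 0.23 at p17. Groups did not overlap for 1 gene that was higher and 2 that were lower at p14, where 1.91% and 1.86% of all genes showed this. At p17 they did not overlap for 4 higher genes and 1 lower gene, against 3.9% and 1.98% of all genes.

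**Figure D1:**
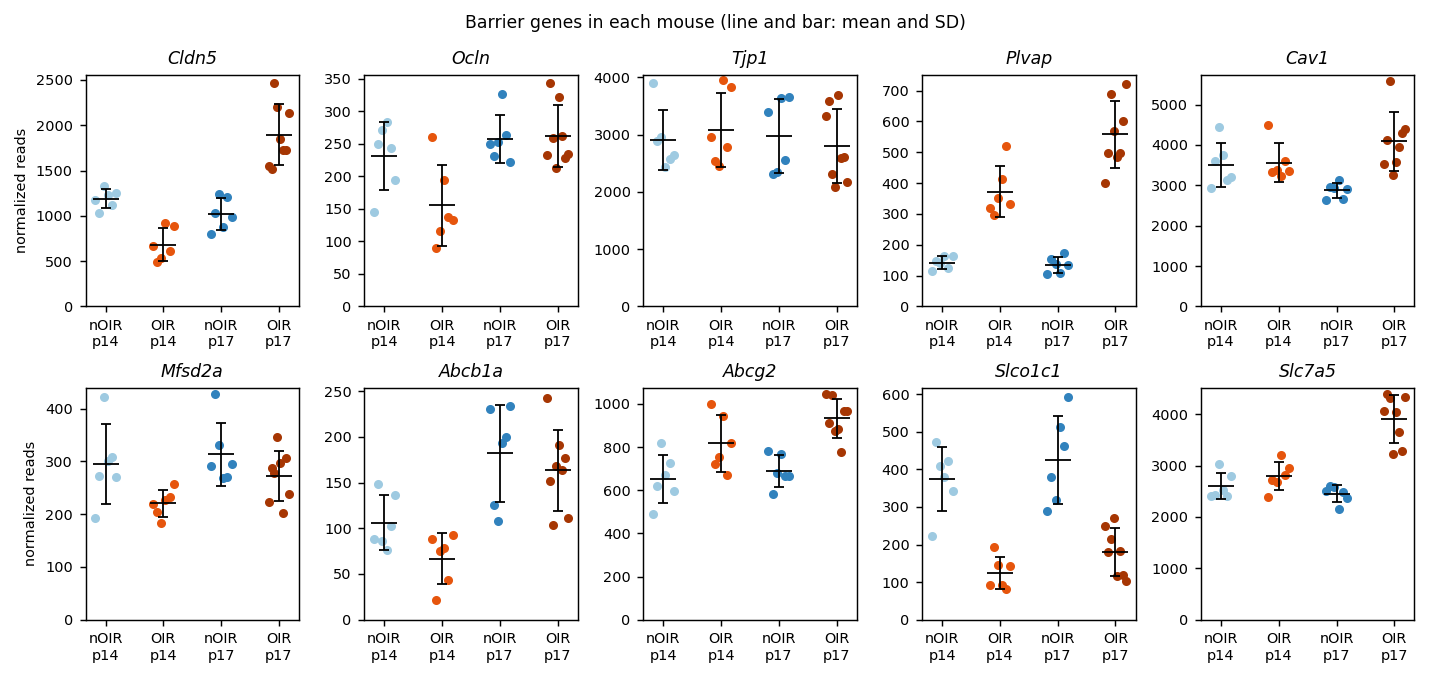
Normalized reads (vertical axes, from 0) of the 10 barrier genes in each of 26 mice, by group (horizontal axes). Points are mice, and the line with a bar gives the mean and SD. Plvap lies between 297 and 519 in OIR p14 and between 401 and 721 in OIR p17 mice, above every control, and Slco1c1 lies below the controls at both ages.

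**Figure D2:**
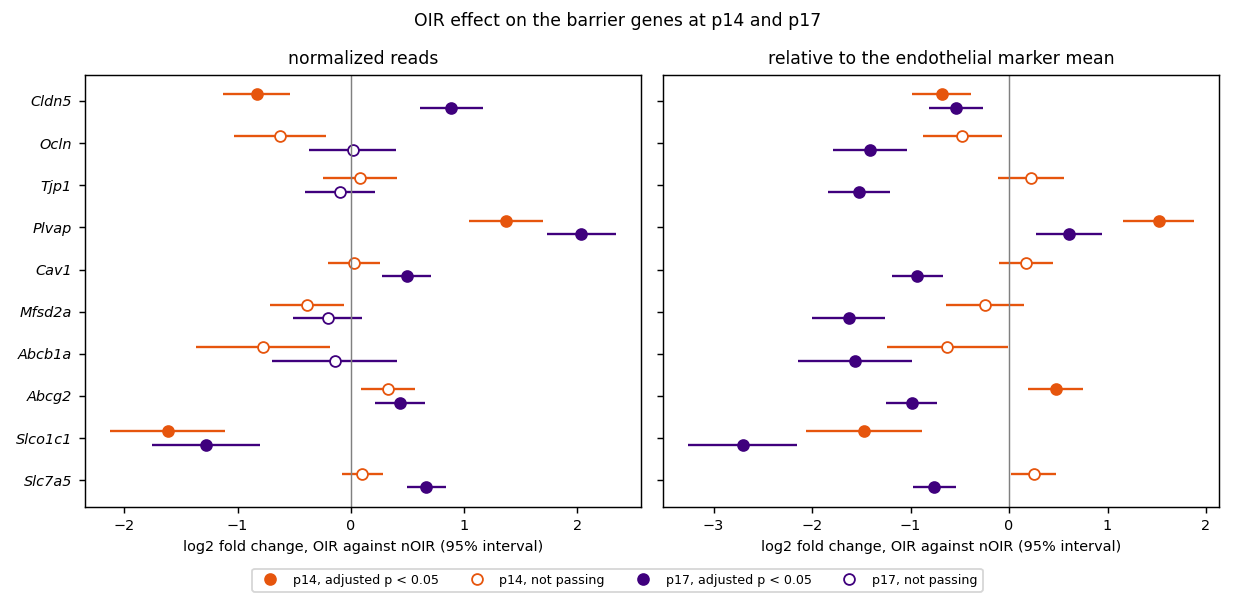
Log2 fold change of OIR against nOIR mice (horizontal axes) with its 95% interval for each barrier gene at p14 (orange) and p17 (purple), on normalized reads (left) and after subtracting the mean of 14 endothelial markers in each mouse (right). Filled points had an adjusted p under 0.05. On the left the Cldn5 points lie on opposite sides of 0, and on the right all genes other than Plvap lie below 0 at p17.

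Claudin-5, the main sealing protein of endothelial tight junctions, fell at p14 and rose at p17. In nOIR p14 mice Cldn5 had 1029 to 1324 normalized reads with a median of 1203, and in OIR p14 mice 487 to 920 with a median of 635. Every OIR p14 mouse lay below every control. The log2 fold change was -0.83 ± 0.15 (SE, n = 6 and 6, adjusted p = 0.00035 by limma), and the exact two-sided permutation test gave 0.00216, the smallest p that 6 against 6 mice allow. At p17 the order was turned: controls held 799 to 1241 (median 1009) and OIR mice 1516 to 2461 (median 1787), again with no overlap. That log2 fold change was 0.89 ± 0.14 (n = 8 and 6, adjusted p = 1.7e-05). The effect at p17 exceeded the effect at p14 by 1.72 on the log2 scale (95% interval 1.31 to 2.13, adjusted p = 3.08e-06, limma contrast). Cldn5 and Slc7a5 were the 2 barrier genes that passed this test of the difference, which 1.43% of all genes passed in this direction. In order of level, OIR p14 came lowest, then nOIR p17 and nOIR p14, which did not differ beyond their spread, and OIR p17 came highest.

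Neither Ocln nor Tjp1 passed at p14 or p17. Occludin, a membrane protein of the same junction, ranged from 146 to 284 normalized reads of Ocln in nOIR p14 mice (median 247) and from 90.2 to 261 in OIR p14 mice (median 136), so that the groups overlapped. Its log2 fold change of -0.62 ± 0.20 had an adjusted p of 0.061 by limma, and this call turned on single mice. The adjusted p was 0.00735 without OIR p14 mouse S1, 0.0406 without OIR p14 mouse S4, 0.0192 without nOIR p14 mouse S1 and 0.0223 when nOIR p14 mouse S4 was kept. At p17, Ocln lay between 222 and 326 in controls and between 212 and 344 in OIR mice, a log2 fold change of 0.02 with a 95% interval from -0.37 to 0.40. Tjp1, which encodes the scaffold ZO-1, had means of 2903 ± 525 and 3084 ± 650 (SD) in nOIR and OIR mice at p14 and of 2983 ± 647 and 2798 ± 645 at p17. The 4 groups of Tjp1 overlapped. On the log2 scale, OIR and nOIR mice differed by 0.08 (interval -0.25 to 0.41) at p14 and by -0.10 (interval -0.40 to 0.21) at p17.

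Plvap, the diaphragm protein, was the gene with the strongest rise among the 10. Its normalized reads were 114 to 164 in nOIR p14 mice (median 144) and 297 to 519 in OIR p14 mice (median 343). At p17 they were 104.5 to 173 (median 136) in controls and 401 to 721 (median 533) in OIR mice. No OIR mouse of either age fell within the range of the controls. The fold change was 2.59 at p14 (log2 1.37 ± 0.16, adjusted p = 8.49e-07) and 4.10 at p17 (log2 2.03 ± 0.15, adjusted p = 3.28e-11, limma). Only at p17 did Plvap meet the bound used here for a DEG, an adjusted p under 0.05 with a log2 fold change above 2, which 1.9% of all genes met. This log2 fold change lies just inside the bound, and over the alternatives it ranged from 1.94 to 2.11. Its p17 effect exceeded its p14 effect by 0.66 with an interval of 0.22 to 1.11, which did not pass (adjusted p = 0.159). The levels of nOIR p14 and nOIR p17 did not differ beyond their spread, OIR p14 was higher, and OIR p17 was the highest.

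Plvap and Cldn5 set side by side in each mouse describe how the balance of a leak marker and a sealing protein moved, a ratio chosen after its values were seen and given with no test. Log2 Plvap minus log2 Cldn5 was between -3.36 and -2.79 in nOIR p14 mice and between -3.16 and -2.74 in nOIR p17 mice. In OIR p14 mice it was between -1.41 and -0.23, and in OIR p17 mice between -1.95 and -1.52. The ratio was thus higher in every OIR mouse than in every control, and its median was higher at p14 (-0.88) than at p17 (-1.82). At p14 one gene rose while the other fell, and at p17 both rose and Plvap rose more.

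**Figure D3:**
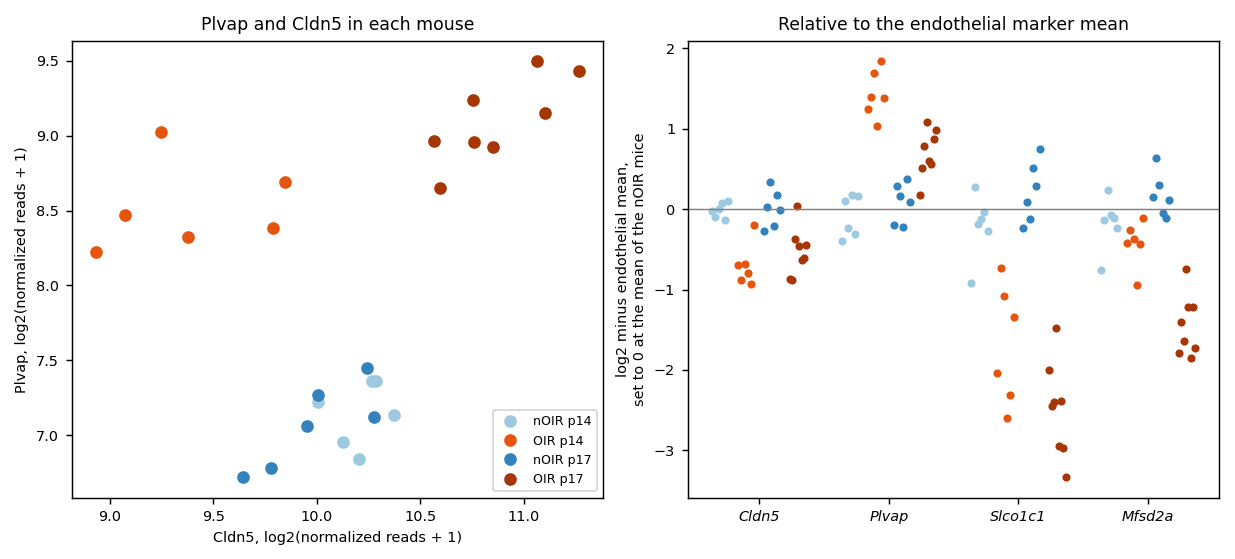
Left, log2(normalized reads + 1) of Plvap (vertical) and Cldn5 (horizontal) in each of 26 mice, coloured by group. Right, log2 level of 4 barrier genes minus the mean of 14 endothelial markers in the same mouse, shifted for each gene so that the mean of the 12 nOIR mice is 0, with both p14 groups before both p17 groups and nOIR before OIR. Controls form 1 cloud on the left, with all 6 OIR p14 mice above it, 4 of them also to its left, and OIR p17 mice above it and to the right.

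Caveolin-1, the coat protein of caveolae, was higher at p17 and not detectably changed at p14. Cav1 had 2924 to 4447 normalized reads in nOIR p14 mice (median 3398) and 3226 to 4496 in OIR p14 mice (median 3363), with a log2 fold change of 0.03 (interval -0.20 to 0.26). The highest OIR p14 mouse, S1, stood apart from the other 5 of its group. At p17, controls ranged from 2635 to 3124 (median 2920) and OIR mice from 3250 to 5596 (median 4036), without overlap. The log2 fold change was 0.49 ± 0.10 (adjusted p = 0.00114, limma). Its effect at p17 minus that at p14 was 0.47 (interval 0.15 to 0.78) and did not pass (adjusted p = 0.158).

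Mfsd2a, which carries lysophosphatidylcholine lipids and restrains caveolar transport, did not pass at either age. The gene ranged from 193 to 423 normalized reads (median 287) in nOIR p14 mice and from 183 to 257 (median 222) in OIR p14 mice, and from 269 to 427 (median 293) and 202 to 346 (median 283) at p17. The groups overlapped at both ages. OIR and nOIR mice differed by -0.39 ± 0.16 at p14 (adjusted p = 0.179, and 0.048 without nOIR p14 mouse S1) and by -0.20 ± 0.15 at p17 (adjusted p = 0.465, limma) on the log2 scale. The intervals ran from -0.71 to -0.06 and from -0.51 to 0.10.

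Of the efflux pumps, Abcg2 rose at p17 and Abcb1a passed at neither age. Abcb1a, which encodes P-glycoprotein, had 76.2 to 149 normalized reads in nOIR p14 mice (median 95.3) and 21.5 to 92.2 in OIR p14 mice (median 76.8), and did not pass (log2 fold change -0.77 ± 0.29, adjusted p = 0.127, limma). At p17 it had 109 to 234 in controls and 104 to 243 in OIR mice, a log2 fold change of -0.14 with an interval from -0.70 to 0.41. The reads of Abcb1a are uncertain, since 22.5% of the 50-base windows of its transcripts also occur in other genes, chiefly its close relative Abcb1b. With the reads of both summed, an alternative added after the data were seen, OIR and nOIR mice differed by -0.59 at p14 (adjusted p = 0.175) and by 0.04 at p17 (adjusted p = 0.951, limma) on the log2 scale. Abcg2, the breast cancer resistance protein, had means of 653 ± 113 (SD) in nOIR p14 and 818 ± 131 in OIR p14 mice and did not pass there (log2 fold change 0.33 ± 0.12, adjusted p = 0.106). A mouse decides that call too, since without nOIR p14 mouse S3 the adjusted p was 0.0438. At p17, Abcg2 rose from 582 to 781 normalized reads in controls (median 674) to 779 to 1047 in OIR mice (median 938). Here 1 OIR mouse lay just within the control range, and the log2 fold change was 0.43 ± 0.11 (adjusted p = 0.0058, limma).

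Of the uptake carriers, Slco1c1 fell at both ages and Slc7a5 rose at p17. Slco1c1 encodes an organic anion transporter known for carrying thyroid hormone across the barriers of the brain. Its normalized reads were 224 to 473 in nOIR p14 mice (median 394) and 81.6 to 192 in OIR p14 mice (median 117). At p17 controls had 290.2 to 592 (median 420.3) and OIR mice 102 to 271 (median 181). The ranges were separate at both ages. The level at p14 was 0.326 of that in controls (log2 fold change -1.62 ± 0.25, adjusted p = 6.47e-05), and at p17 it was 0.411 (log2 fold change -1.28 ± 0.23, adjusted p = 0.000182, limma). The difference between these effects, 0.34, had an interval from -0.36 to 1.04. Slco1c1 was lower at p17, and in the same mice 12 of 14 endothelial markers were higher. The other markers, Tek and Ptprb, had log2 fold changes of 0.29 and -0.23 and did not pass. The cause of the lower Slco1c1 level was not tested.

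Slc7a5 encodes LAT1, the light chain of a carrier of large neutral amino acids. At p14 it had 2416 to 3038 normalized reads in controls (median 2474) and 2395 to 3199 in OIR mice (median 2768), with overlap and a log2 fold change of 0.10 (interval -0.08 to 0.29). At p17 it had 2161 to 2613 (median 2495) and 3218 to 4403 (median 4046), without overlap, and the log2 fold change was 0.66 ± 0.08 (adjusted p = 7.83e-07, limma). The effect at p17 exceeded that at p14 by 0.56 (adjusted p = 0.0105).

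Between the ages, none of the 10 genes passed in nOIR mice, where 2 had an unadjusted p under 0.05 (Abcb1a, log2 fold change 0.76 from p14 to p17, and Cav1, -0.28) and edgeR and DESeq2 called 0. Few genes of the retina passed this comparison, 0.158% higher and 0.158% lower. In OIR mice, 5 of the 10 were higher at p17 than at p14, against 4.11% of all genes. Cldn5 rose by 1.49 ± 0.14 on the log2 scale (adjusted p = 1.31e-08), Abcb1a by 1.39 ± 0.27 (adjusted p = 0.00119) and Ocln by 0.82 ± 0.19 (adjusted p = 0.00571, limma). Plvap rose by 0.58 ± 0.15 (adjusted p = 0.0143) and Slc7a5 by 0.48 ± 0.08 (adjusted p = 0.000357). Groups did not overlap for 3 of these, namely Cldn5, Abcb1a and Slc7a5, against 1.41% of all genes. Slco1c1, with a log2 fold change of 0.51 and an interval of 0.03 to 0.99, and Mfsd2a, with 0.29 and -0.01 to 0.60, did not pass this comparison after adjustment. These comparisons share their mice with those of OIR against nOIR.

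Because endothelial markers moved with the groups, each gene was also expressed relative to the mean log2 level of the 14 endothelial markers in the same mouse. This mean was 8.01 ± 0.09 (SD) in nOIR and 7.86 ± 0.32 in OIR mice at p14, and 7.76 ± 0.05 in nOIR and 9.19 ± 0.17 in OIR mice at p17. At p14, Plvap was higher by 1.52 (adjusted p = 3.03e-07) and Abcg2 by 0.47 (adjusted p = 0.0424), whereas 3.56% of all genes were higher on this scale. The Abcg2 call was not stable, since it was lost with Pecam1 and Cdh5 as the reference (adjusted p = 0.703) and in 12 of 26 fits with 1 mouse left out (adjusted p up to 0.128), namely without nOIR p14 mouse S1, S2, S5, S6 or S7, nOIR p17 mouse S3 or S6, OIR p14 mouse S1, S2, S3 or S6, or OIR p17 mouse S7. Cldn5, at -0.68 (adjusted p = 0.00273), and Slco1c1, at -1.47 (adjusted p = 0.00114), were lower, against 0.652% of all genes. At p17, Plvap was again higher, by 0.61 ± 0.17 (adjusted p = 0.00142), which held for 1.4% of all genes. The other 9 were lower, among them Cldn5, Slc7a5, Cav1 and Abcg2, which were higher on normalized reads, but so were 81.1% of all genes, because the subtracted mean had itself risen.

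Among those 9, Slco1c1 had the lowest value (-2.71) and Cldn5 the one closest to 0 (-0.54). The order of the genes is that on normalized reads, since the same mean was subtracted from each, and the -1.63 of Mfsd2a is its -0.20 on normalized reads lowered by the rise of that mean. On this scale the Cldn5 effects at p14 and p17 differed by 0.15 with an interval of -0.26 to 0.55. The opposite signs of Cldn5 at the 2 ages were therefore seen on normalized reads and not relative to the endothelial markers. The scale does not give a level per endothelial cell for any barrier gene. Tjp1, Cav1, Slc7a5 and Abcg2 are also expressed by other retinal cells.

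Another 43 genes of the same functions were read beside the 10. At p14, 4 of 43 were higher and 8 lower in OIR mice, and at p17 16 were higher and 6 lower, with medians of -0.01 and 0.22. Over all genes, 3.18% were higher and 2.91% lower at p14, and 7.39% higher and 5.12% lower at p17. For 9 of the 43 the effect at p17 exceeded that at p14, namely Esam, Cavin1, Slco2b1, Slc40a1, F11r, Cdh5, Slc7a1, Slc29a1 and Ehd2, against 1.43% of all genes. Of these, the iron exporter Slc40a1 fell by 0.61 at p14 (adjusted p = 0.00544) and rose by 0.46 at p17 (adjusted p = 0.0175, limma), as Cldn5 fell and rose. The junction list of 15 had 0 passing genes at p14 with limma (3 with an unadjusted p under 0.05, 0 with edgeR and 1 with DESeq2) and 6 higher and 1 lower at p17. F11r, which encodes the junction adhesion molecule JAM-A, rose by 1.46 on the log2 scale at p17 (adjusted p = 7.27e-09), and the endothelial cadherin Cdh5 by 1.43 (adjusted p = 4.3e-05). Cdh5 and Esam also belong to the endothelial markers. Cldn12, another claudin, had a log2 fold change of -0.34 (adjusted p = 0.0468 by limma), a borderline call that was lost with edgeR (0.0515) and in 20 of 38 alternatives in all (adjusted p from 0.0114 to 0.143).

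Of 7 other caveolar genes, 2 were higher and 2 lower at p14, and 3 were higher and 0 lower at p17. Of all genes, 3.18% were higher and 2.91% lower at p14, and 7.39% higher and 5.12% lower at p17. Cavin3, a coat protein of caveolae, was higher by 0.77 at p14 (adjusted p = 0.00144) and by 1.5 at p17 (adjusted p = 4.72e-09, limma). Ehd2, which sits at the caveolar neck, was higher by 0.59 and 1.27. Cavin1 rose by 1.63 at p17 (adjusted p = 1.98e-09) and differed by 0.07 at p14, which did not pass. Cavin2 (-1.06) and Cav2 (-0.50) were lower at p14 and did not pass at p17, where their log2 fold changes were 0.04 and -0.12.

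Of 17 other carriers, 2 were higher and 6 lower at p14 and 6 higher and 5 lower at p17, against the same shares of all genes (3.18% and 2.91%, then 7.39% and 5.12%). Slco1a4, an organic anion transporter whose gene lies 3 protein-coding genes from Slco1c1 in the RefSeq order, had 351 to 558 normalized reads in nOIR p14 and 72.2 to 251 in OIR p14 mice, and 636 to 902 and 128 to 378 at p17. It fell by 1.86 at p14 (adjusted p = 4.92e-06) and by 1.79 at p17 (adjusted p = 7.21e-07, limma). Slc22a8, the organic anion transporter OAT3, fell by 1.09 and 1.22. Slc16a1, a lactate carrier, and Slc5a6, a vitamin carrier, also fell at both ages. Slco2b1 of the same family as Slco1c1 went the other way at p17, with 203 to 325 normalized reads in controls and 476 to 590.4 in OIR mice (log2 fold change 1.08, adjusted p = 2.92e-05). The glucose transporter Slc2a1 was higher at both ages (0.36 and 0.73), and so was Slc3a2 (0.44 and 0.52), the heavy chain that pairs with the product of Slc7a5. Of the 4 other efflux pumps, 1 passed at p17 with limma and with edgeR and 2 with DESeq2. The one called by limma was Abcc1, with a rise of 0.60 at p17 (adjusted p = 0.00221). Abcb1b differed by -0.08 at p14 and by 0.71 at p17 (adjusted p = 0.0768) on the log2 scale.

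**Figure D4:**
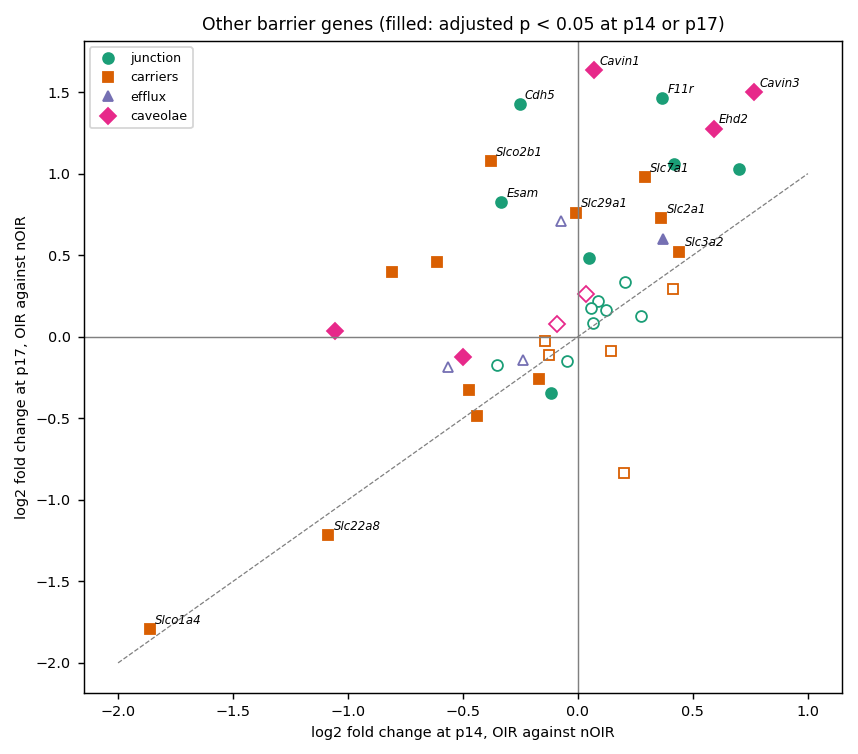
Log2 fold change of OIR against nOIR mice at p14 (horizontal) and p17 (vertical) for 43 other barrier genes, with symbols for their function. Filled symbols had an adjusted p under 0.05 at p14 or p17, and the dashed line marks equal effects. Slco1a4 and Slc22a8 lie near this line at the lower left, and Cavin1, F11r and Cdh5 are among the genes far above it.

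Genes with a pattern most like a member were ranked over 26 mice by the root mean square difference of log2 levels, each centred on its own mean, among the 19003 genes that averaged 10 or more normalized reads. For Cldn5 they were Rflnb (0.211), the endothelial junction gene Esam (0.248) and Fcgrt (0.297). Those nearest to Plvap were Plat (0.261), H2-K1 (0.265) and C1qb (0.293). For Slco1c1 they were Olfm4 (0.429), A930031H19Rik (0.435) and Spc25 (0.456), and for Slc7a5 Tnfaip1 (0.119), Tpm1 (0.168) and Fam110a (0.169). Nearest to Cav1 were P4hb (0.148), Snx6 (0.152) and Arpc5 (0.152), and nearest to Abcg2 were Calu (0.151), Tacc3 (0.165) and Rnf19a (0.166). These distances grow with the spread of a gene over mice, so they rank genes within a member and do not compare members, and they carry no test.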

How the data were processed

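RNA of whole retinas was sequenced from 27 mice, 1 library each. The authors checked reads with FastQC 0.73, mapped them with STAR 2.7.8a to Gencode M28 (GRCm39), counted them with featureCounts 2.0.1 and divided counts by a DESeq2 1.34 size factor, so the deposited signal is in normalized reads. Reads were single-ended and 50 bases long and were counted with default parameters, and the paper names no step that removed PCR copies. The authors' deposited group means, log2 fold changes and adjusted p-values were not used. Dividing by the step of each mouse gave whole reads for 100% of its values (tolerance 0.001 reads), also in 3 mice (nOIR p14 S4, OIR p14 S3 and OIR p17 S4) whose step was so close to 1 that a second check of the file could not tell it from unscaled values. No 2 mice of a group were copies (chi-square per degree of freedom at least 9.39).

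Limma 3.58.1 (trend, R 4.3.3) was fitted to log2(normalized reads + 1) of the 4 groups in 26 mice, for 27137 genes with a mean of at least 1, with Benjamini-Hochberg adjustment. The same fit was made relative to 14 endothelial markers. Intervals are 95%, and ± gives the SE of a fold change or the SD of a level. Exact two-sided permutation tests used Python 3.11.15 with scipy 1.17.1, whose smallest p is 0.00216 for 6 against 6 and 0.000333 for 8 against 6 mice. The members and gene lists were chosen with earlier results of these data known. All 10 members are named, related genes by role among those passing, and the 3 most like genes for members that passed. Sequences come from RefSeq tables of GRCm38.p6, another build than the authors', and shared 50-base windows from Gencode transcripts of GRCm38. Alternatives were a pseudocount of 0.1, no filter or a mean of at least 10, mouse S4 included, compared groups only, a replicate block, equal totals, quantile normalization, edgeR 4.0.16 and DESeq2 1.42.0 on the recovered reads, log2 Cryaa or Rpe65 as a covariate, other endothelial references and leaving out each mouse. On simulated data at p14 (27137 genes), limma recovered 60% of genes changed by 1 and 92% of those changed by 2 on the log2 scale, with 5 false calls. There edgeR made 3 false calls and DESeq2 made 28. The changed genes had a mean of at least 10 reads, and changes smaller than 1 were not simulated.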

Additional observations from a re-analysis of the deposited data

Results flagged for a closer look

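Among 40 groups of gene and condition, 1 held a mouse far from the others, and chance gives about 1 in 20. It was OIR p14 mouse S1, with 4496 normalized reads of Cav1. On the log2 scale this value stood off from the other 5 mice by 0.66 of the range of the group, against a critical value of 0.625. Over all alternatives, mice left out in turn included, the Cav1 log2 fold change at p14 lay between -0.04 and 0.10 and did not pass (adjusted p at least 0.772).

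The effect of OIR differed between the ages for 2 of the 10 genes by the limma contrast, which 1.43% of all genes passed in the same direction. For Cldn5 the effect at p17 minus that at p14 was 1.72 on the log2 scale (adjusted p = 3.08e-06), lower than controls in 6 of 6 mice at p14 and higher in 8 of 8 at p17. For Slc7a5 the difference was 0.56 (adjusted p = 0.0105), with higher values in 8 of 8 mice at p17 and overlapping groups at p14. The levels of endothelial markers moved with these results. Relative to their mean, the Cldn5 difference was 0.15 (interval -0.26 to 0.55) and that of Slc7a5 was -1.01. The same mean was subtracted from every gene, which lowers this difference by the same amount for all. The sign of Slc7a5 on this scale therefore says nothing particular to that gene.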

How the results depend on the processing

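Over the alternatives on normalized reads, no barrier or related gene that passed at p14 or p17 changed direction. Relative to endothelial markers, Cldn5, Slc7a5, Cav1 and Abcg2, higher at p17 on normalized reads, were lower (-0.54, -0.76, -0.93 and -0.99). So were 81.1% of all genes, because the subtracted mean had itself risen, and these signs are not particular to the barrier genes. At p17, 5 higher and 1 lower barrier gene were called under every alternative and without any 1 mouse. At p14 the higher count was 1, became 2 with equal totals, and ranged from 1 to 2 over leaving out each mouse (2 without nOIR p14 mouse S3, adding Abcg2). The lower count of 2 ranged from 2 to 4 (4 without nOIR p14 mouse S1, adding Ocln and Mfsd2a). Ocln at p14 also passed with a mean of at least 10 (adjusted p = 0.0463), with Cryaa as a covariate (0.0358) and with S4 (0.0223), over a range of 0.00735 to 0.164, and Abcg2 passed with equal totals (0.047). Between mice of the same number, deviations from the group means correlated with r from -0.11 to 0.16 (34 pairs, 4 over 0.1). Mouse S1 gave 0.16 between nOIR p14 and each p17 group and 0.14 between the p17 groups. Mouse S3 gave 0.14 between nOIR p14 and OIR p17. Mice of unlike number were not compared, so whether a shared number marks a batch was not tested. With a replicate block, the count of genes whose effects differed between ages went from 2 to 1 (Slc7a5, adjusted p = 0.0556), and the count of genes higher relative to endothelial markers at p14 from 2 to 1 (Abcg2, adjusted p = 0.132). That count was also 1 with Pecam1 and Cdh5 as the reference, and ranged from 1 (without OIR p14 mouse S1) to 3 over leaving out each mouse. Of the 43 related genes, 7 were higher at p14 with DESeq2 (4 with limma), and 3 were lower at p17 with equal totals (6 with limma). The causes were not tested. Whole-retina values do not assign a change to a cell type, and litter and retinas per library were not modelled.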
